A study of Mus musculus with 4 samples.

Results

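Internal fragments that start at positions 39 to 67 of a 95 nt mitochondrial segment, and stop before its last base, were described in 4 small RNA libraries of MLE12 cells. A fragment is a distinct pair of start and end, and positions alone chose the members, namely a start of 39 to 67 and an end of at most 94. The rule took 380 of the 1066 distinct fragments listed for the segment, and 3192 reads in all. MLE12 is a mouse lung epithelial line that came from tumours of mice carrying a viral large T antigen under a surfactant protein C promoter, and it is a transformed line, not primary tissue. Treated cells received 10% cigarette smoke extract (CSE) for 10 h, and control cells were left untreated, with 2 biological replicates per group, all at passage 3. Nothing in the labels says that the replicates were separate cultures, so p-values of tests over libraries measure the spread between these libraries, which may be technical. Full-strength extract was the smoke of 1 research cigarette taken up in 5 ml of serum-free medium and passed through a 0.22 um filter, made fresh for each experiment. No genetic change separates the groups in the labels. The comparison asked how smoke alters small noncoding RNAs in these cells. Lung epithelial markers were not analysed here, since the tables hold this segment alone.

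The segment lies in the control region of the mitochondrial genome, the noncoding stretch from which both strands are transcribed and where replication of the heavy strand is primed by an RNA. Long transcripts that begin there are cut and trimmed, and short RNAs with defined ends can be left over. Its coordinates on chromosome MT are given with the processing of the data. It overlaps 0 of the 37 mitochondrial genes of GENCODE M21 and is therefore neither exonic nor intronic. The nearest annotated gene at lower coordinates is mt-Tp, the proline tRNA gene, at 15356 to 15422 on the minus strand, 693 bases away. The distance to the nearest gene on the other side is not given here, and it may be shorter. All positions are numbered as in the tables, with 1 for the first base and 95 for the last. The direction of this numbering on the chromosome is open, because a mitochondrial genome sequence was not used here.

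The segment is shown first, as the tables list it from 5′ to 3′, with the 29 start positions of the set in capitals. The 4 most abundant members follow, then 2 members that start at 51 or 41 and are taken up below. In the fragments, capitals mark what each holds of the run of G at 86 to 89, in which many members end.
Segment: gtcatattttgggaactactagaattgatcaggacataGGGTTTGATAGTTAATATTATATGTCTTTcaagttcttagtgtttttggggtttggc
Fragment 55-87: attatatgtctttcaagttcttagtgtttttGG
Fragment 58-87: atatgtctttcaagttcttagtgtttttGG
Fragment 55-88: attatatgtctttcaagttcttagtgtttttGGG
Fragment 58-89: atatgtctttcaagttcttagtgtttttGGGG
Fragment 51-89: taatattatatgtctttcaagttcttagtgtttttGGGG
Fragment 41-94: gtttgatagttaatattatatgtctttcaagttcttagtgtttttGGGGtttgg

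The set held 1209 reads in CSE 3 and 1402 in CSE 4, against 236 in untreated 1 and 345 in untreated 2. The group means were 1306 ± 136.5 and 290.5 ± 77.1 reads (SD, n = 2 each), a log2 ratio of 2.17. Reads kept for the segment numbered 4715 and 5447 in the CSE libraries and 982 and 1424 in the untreated ones, and no library total was available to correct for depth. More RNA of the segment and a larger library cannot be told apart, nor can more RNA per cell and more cells that make it. Replicates differed by more than sampling noise over all fragments of the segment (chi-square test, p = 1.043e-14 between the CSE and 0.0139 between the untreated libraries).

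As a share of the segment's reads the set was slightly larger in treated than in untreated cells. It took 25.6% of CSE 3 (95% Wilson interval 24.4 to 26.9) and 25.7% of CSE 4 (24.6 to 26.9). In untreated 1 and 2 it took 24.0% (21.5 to 26.8) and 24.2% (22.1 to 26.5). The groups did not overlap, but their counting intervals did, and for the difference of 1.56 percentage points the two-sided exact permutation test gave p = 0.33. That is the smallest p that 2 libraries against 2 can give, here and in every permutation test between the groups below. The difference depended on which reads were taken: it was 0.278 points with starts 36 to 67, 0.677 with starts 42 to 67 and 0.408 without reads of 53 to 54 nt. With each distinct fragment counted once it was 4.75, a value that also depends on read number, which differed between the groups. Reads that start at 23 to 38 and stop before the last base, the neighbouring class, took 25.7% and 26.8% of the CSE libraries and 32.0% and 33.2% of the untreated ones. All intervals and limits reflect counting error alone, because repeated copies of 1 molecule cannot be recognised.

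The set is spread thinly over many fragments. Of the 435 pairs of start and end that the rule and the shortest listed length of 28 nt allow, 380 were seen, and members were 28 to 55 nt long. The median member had 5 reads over the 4 libraries. Of all members, 55 were seen in all 4 libraries and 105 in a single library. CSE 3 and CSE 4 listed 292 and 299 members and untreated 1 and 2 listed 126 and 143, but the CSE libraries also held several times more set reads. With each library thinned to 236 set reads, 146 and 145 distinct members were expected in the CSE libraries and 126 and 123 in the untreated ones. The ratio of the means was 1.17 without overlap (exact permutation p = 0.33), so reads of treated cells were spread over somewhat more fragments at equal read number. Thinning equalised reads and not molecules, since repeated copies of a molecule cannot be recognised. Just inside the start limit, position 39 held 44, 49, 5 and 4 reads in CSE 3, CSE 4, untreated 1 and untreated 2, and just outside it position 38 held 40, 55, 11 and 17. At the other limit, 141, 126, 26 and 17 set reads ended at 94, while 910, 969, 129 and 209 reads with the same starts reached 95.

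Starts were concentrated at a few positions between 48 and 60. Position 55 was the most used 5′ end of the set, with 9.76% and 10.4% of set reads in the 2 CSE libraries and 10.2% and 12.8% in untreated 1 and 2. Position 58 came next, with 5.71%, 8.70%, 12.3% and 8.12% in the same order, and its CSE 3 interval (4.53 to 7.16) lies below that of untreated 1 (8.69 to 17.1). At both positions the groups overlapped, and the log2 fold changes of -0.20 ± 0.27 (SE) and -0.45 ± 0.31 had adjusted p-values of 0.849 and 0.601 in edgeR's quasi-likelihood test. The other named starts, by mean share, were 48, 52, 53, 51, 43 and 47. Starts 61 to 67 together held 3.97%, 3.42%, 2.12% and 0.870% of set reads. There the rule leaves only 1 to 7 possible ends of 28 nt or more, so their low share is partly set by the listing.

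**Figure D1:**
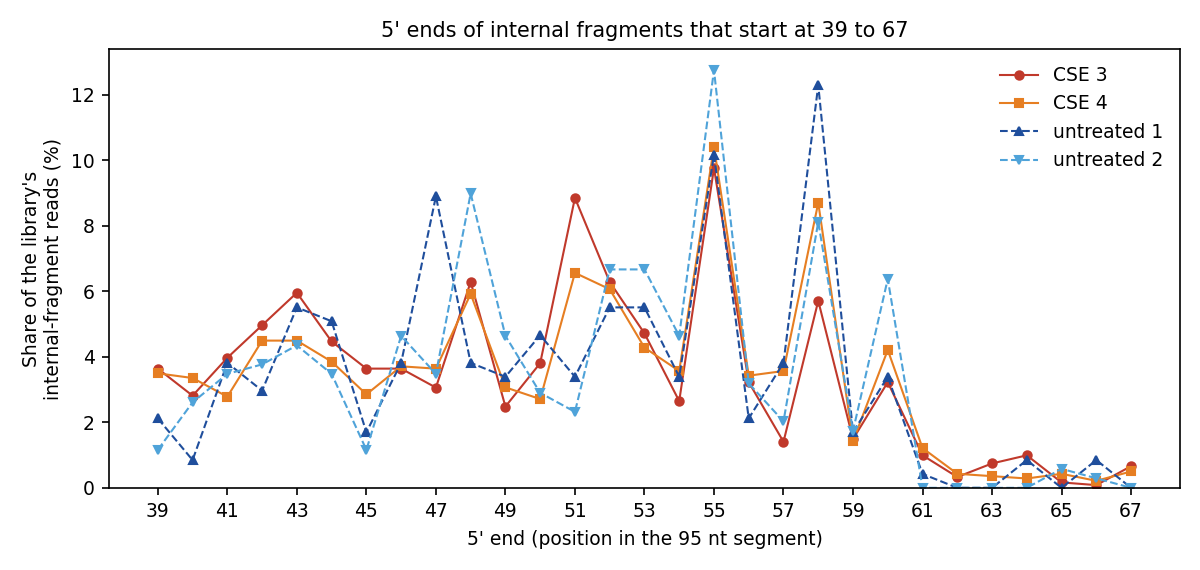
Share of each library's set reads (y, %) by 5′ end (x, position in the 95 nt segment); points joined by lines are the 4 libraries. Position 55 holds 9.76% to 12.8% and is the highest start in every library except untreated 1, where 58 is higher at 12.3%, and at position 51 both CSE libraries (8.85% and 6.56%) lie above both untreated ones (3.39% and 2.32%).

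Position 51 had the smallest p of the set's starts. It held 107 of 1209 reads in CSE 3 (8.85%, Wilson interval 7.38 to 10.6) and 92 of 1402 in CSE 4 (6.56%, 5.38 to 7.98). In untreated 1 and 2 it held 8 of 236 (3.39%, 1.73 to 6.54) and 8 of 345 (2.32%, 1.18 to 4.51). The CSE libraries were both higher, with a log2 fold change of 1.47 ± 0.40, but the result did not pass the threshold of 0.05 (edgeR adjusted p = 0.0963 over 86 tested 5′ ends). It passed with all listed reads and TMM factors as library size (adjusted p = 0.0134) and without untreated 1 (0.00538). It did not pass without untreated 2 (0.173), without CSE 3 (0.444), without CSE 4 (0.143) or in DESeq2 (0.922). Position 51 is among the 8 most used starts, while the starts of the next paragraph other than 47 were chosen after their values were seen.

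Positions 39 and 45 were also higher in both CSE libraries. Start 39 took 3.64% and 3.50% of the CSE libraries and 2.12% and 1.16% of the untreated ones, with a log2 fold change of 1.19 ± 0.50 (edgeR adjusted p = 0.345). Start 45 took 3.64% and 2.85% against 1.69% and 1.16%, with a log2 fold change of 1.22 ± 0.53 (edgeR adjusted p = 0.345). The untreated values rest on 4 to 5 reads per library at each position. At starts 62, 63 and 67 the untreated libraries listed 0 reads, which allows shares of up to 1.27% in untreated 1 and 0.870% in untreated 2, above the CSE shares of 0.331% to 0.744%. Neither untreated library alone could therefore show a lower share at those starts. In edgeR, which fits the libraries together, start 67 had an unadjusted p of 0.0417 and an adjusted p of 0.345. Start 61 had 12 and 17 reads in the CSE and 1 and 0 in the untreated libraries. Its log2 fold change was 2.57 ± 1.215 (edgeR unadjusted p = 0.0454, adjusted p = 0.345). Position 47 went the other way in untreated 1 alone, at 8.90%, while the remaining libraries had 3.06% to 3.64% (edgeR adjusted p = 0.345).

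Over the 28 of 29 starts with at least 10 reads, 0 were called at an adjusted p under 0.05 in edgeR, and 5 had an unadjusted p under 0.05. Over the whole segment 0 of 86 5′ ends were called, a background of 0%, and 12.8% had an unadjusted p under 0.05. DESeq2 also called 0, whereas a Fisher's exact test that pooled the reads of each group called 1 start of the set, 51. That pooled test ignores the spread between replicates. The groups did not overlap at 10 starts that were higher and 4 that were lower in CSE, against 23.3% and 18.6% of all tested 5′ ends. The higher starts include 62, 63 and 67, which had 0 untreated reads and reached 10 reads through the CSE libraries alone. The median log2 fold change was -0.06 over the set's starts and 0.05 over all tested 5′ ends.

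Grouped by position, starts 39 to 45 took a larger share in treated cells and starts 53 to 60 a smaller one. Starts 39 to 45 held 29.4% and 25.3% of set reads in the 2 CSE libraries and 22.0% and 20% in untreated 1 and 2. Starts 46 to 52 held 34.4%, 31.7%, 33.5% and 33.6%, and their groups overlapped. Starts 53 to 60 held 32.2% and 39.6% in the CSE and 42.4% and 45.5% in the untreated libraries. Starts 61 to 67, given above at 3.97% and 3.42% against 2.12% and 0.870%, were higher in CSE, but the untreated values rest on 5 and 3 reads. All blocks but 46 to 52 were separate between the groups (exact permutation p = 0.33 for each), and the blocks were drawn after the profile was seen.

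The base at which members start was uneven. The 29 start positions hold 5 T-A steps, in which a T comes just before a first base A, at 48, 52, 55, 58 and 60. These 17.2% of positions carried 31.3% and 35.3% of set reads in the 2 CSE libraries and 35.2% and 42.9% in untreated 1 and 2, so in every library their share was above their share of positions. The 29 positions include 61 to 67, which hold no T-A step and few possible ends, so the excess is partly set by the listing. A-T steps, also 5 positions, carried 11.4% to 16.5%, and T-T steps, 6 positions, carried 21.4% and 19.2% in the CSE and 18.6% and 12.5% in the untreated libraries. A was the first base of 39.6% and 43.3% of set reads in treated and of 44.5% and 54.2% in untreated cells. G was the first base of 16.9% and 16.0% against 11.9% and 13.0%. Neither base overlapped between the groups, while T and the T-A steps did. The difference for A was -3.03 percentage points without untreated 2 and -12.8 without untreated 1. That for G was 3.97 points, 1.26 with starts 42 to 67 and 9.35 with each fragment counted once, and that for T-T steps was 4.75 points, 1.66 without untreated 2, 7.84 without untreated 1 and 0.513 with each fragment counted once. Steps were examined after the 5′ ends were seen, and the bias of the ligation and copying steps toward certain end bases was not tested.

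Reads that reach the last base used the T-A steps as well. Among reads with starts 39 to 60, T-A steps carried 32.6%, 36.6%, 35.9% and 43.3% of set reads in CSE 3, CSE 4, untreated 1 and untreated 2. Among reads with those same starts that reach the last base they carried 36.4%, 41.6%, 29.8% and 45.6%. The set was higher in 1 of 4 libraries (two-sided exact sign-flip permutation test over libraries, p = 0.625).

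At the 3′ side most members ended near the end of the segment. Position 87, inside the run of G, was the most used 3′ end, with 17.9% and 16.3% of set reads in the 2 CSE libraries and 14.4% and 19.1% in untreated 1 and 2. The groups overlapped, and the log2 fold change was 0.01 ± 0.16 (edgeR adjusted p = 0.981). Position 88 followed with 13.1% and 13.1% in the CSE and 10.6% and 10.7% in the untreated libraries. Here both CSE libraries were higher, but the log2 fold change of 0.30 ± 0.17 did not pass (edgeR adjusted p = 0.490). Position 89, the last G of the run, held 9.35%, 12.8%, 6.36% and 11.9%, position 94 held 11.7%, 8.99%, 11.0% and 4.93%, and position 91 held 8.02%, 8.42%, 7.20% and 6.96%. Of these 3 ends, the groups were separate at 91 alone (edgeR adjusted p = 0.870). The remaining named ends, 81, 90 and 82, had mean shares of 3.20% to 6.49% in either group.

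**Figure D2:**
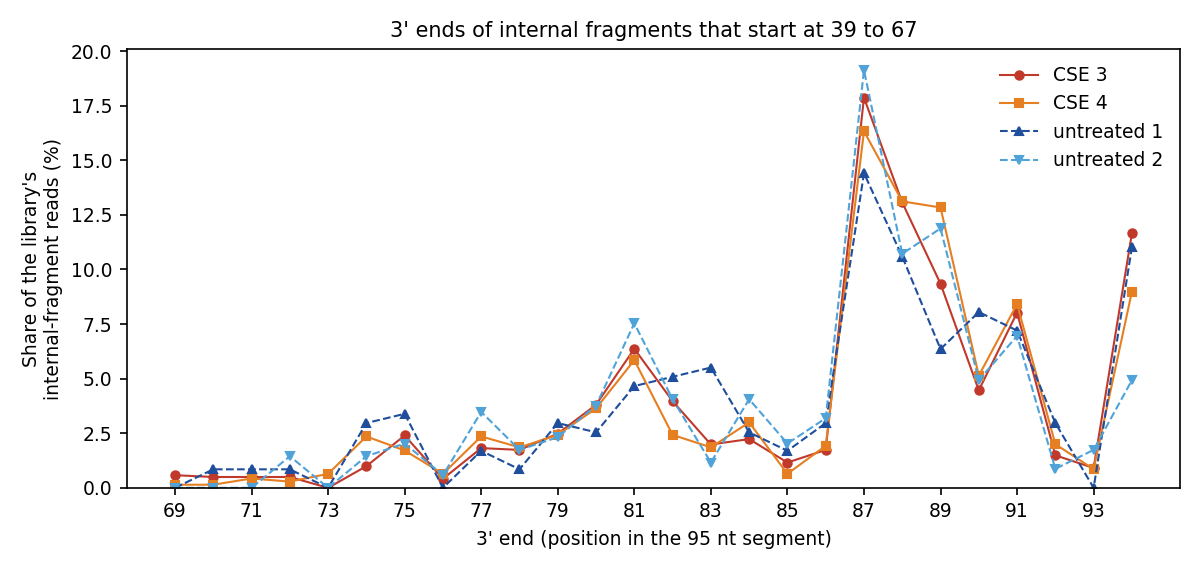
Share of each library's set reads (y, %) by 3′ end (x, position in the 95 nt segment); points joined by lines are the 4 libraries. All libraries peak at 87 (14.4% to 19.1%), with a second rise at 94 that is lowest in untreated 2 at 4.93%.

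Ends at 87 to 91 together took 52.8% and 55.9% of set reads in the 2 CSE libraries and 46.6% and 53.6% in untreated 1 and 2, and the groups overlapped. Ends at 69 to 86 took 33.2% and 32.3% in the CSE and 39.4% and 38.8% in the untreated libraries, a lower share in treated cells without overlap (exact permutation p = 0.33). These groupings were made after the profile was seen. Of 24 set 3′ ends with at least 10 reads, 0 were called in edgeR, 0 had an unadjusted p under 0.05, and DESeq2 called 0. Over the segment 0 of 119 3′ ends were called, a background of 0%, and 11.8% had an unadjusted p under 0.05. The groups did not overlap at 2 higher and 4 lower ends of the set, against 20.2% and 16.0% of all tested 3′ ends. The median log2 fold change was -0.12 over the set's ends and -0.05 over all tested 3′ ends.

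In every library the set ended in the run of G more often than reads that start upstream, although 4 libraries are too few for the test to pass 0.05. Ends at 86 to 89 took 42.02%, 44.2%, 34.3% and 44.9% of the set in CSE 3, CSE 4, untreated 1 and untreated 2. Of reads that start at 23 to 38 and end at 69 to 94 they took 17.4%, 14.5%, 21.7% and 20.3%, and of reads that start at 22, the main 5′ end of the segment, with those same ends they took 20.0%, 16.7%, 16.1% and 22.8%. The set was higher in 4 of 4 libraries in each comparison (two-sided exact sign-flip permutation test, p = 0.125, the smallest 4 libraries allow). Late starts cannot reach the earlier ends at 28 nt, so the comparison was repeated with starts 39 to 42, for which every end from 69 on is long enough. With these, 41.9% and 39.9% of CSE reads still ended in the run, but only 17.4% and 26.3% of untreated reads, from 23 and 38 reads. The excess over starts 23 to 38 then held in 3 of 4 libraries (two-sided exact sign-flip permutation p = 0.250). Over start 22 it held in 4 of 4 (two-sided exact sign-flip permutation p = 0.125). There it was 21.9 and 23.2 percentage points in the CSE libraries but only 1.28 and 3.47 in the untreated ones. In both repeats the differences were separate between the groups (exact permutation p = 0.33).

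Ends at 69 to 80 showed the opposite order. They took 26.3%, 23.7%, 21.7% and 34.2% of the reads that start at 39 to 42. Of reads that start at 23 to 38 and end at 69 to 94 they took 51.5%, 59.8%, 48.2% and 51.3%. The share for starts 39 to 42 was therefore lower in 4 of 4 libraries (two-sided exact sign-flip permutation p = 0.125). Position 75 alone took 4.30%, 0.505%, 0% and 0% of reads that start at 39 to 42 and 6.69%, 8.19%, 14.0% and 9.74% of the upstream class. The 0 untreated reads rest on the same 23 and 38 reads.

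Of the 10 most abundant members by mean share over the 4 libraries, 8 start at 55 or 58. Together the 10 took 11.2%, 15.1%, 18.6% and 18.3% of set reads in CSE 3, CSE 4, untreated 1 and untreated 2. That mean weighs each library equally, although untreated shares rest on far fewer reads. The ranking can therefore favour members whose untreated shares are high by counting error, and the lower CSE sums may partly come from it. Fragment 55-87 had 22, 34, 4 and 13 reads in CSE 3, CSE 4, untreated 1 and untreated 2, which is 1.82%, 2.43%, 1.69% and 3.77% of the set. Its groups overlapped, and the log2 fold change was -0.43 ± 0.52 (edgeR adjusted p = 0.877). Fragment 58-87 had 14, 33, 8 and 7 reads, with overlap and a log2 fold change of -0.55 ± 0.54 (edgeR adjusted p = 0.851).

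Fragments 55-88 and 58-89 differ from these by 1 and 2 more bases of the G run. Fragment 55-88 took 1.82% and 1.85% of the CSE and 2.54% and 2.03% of the untreated sets, on 22, 26, 6 and 7 reads, without overlap (edgeR adjusted p = 0.961). Fragment 58-89 had 11, 33, 5 and 8 reads and overlapped (edgeR adjusted p = 0.896). The remaining 6 named members, 55-91, 58-88, 53-87, 55-89, 60-89 and 58-90, had mean shares of 0.528% to 1.72% in either group. Their log2 fold changes ran from -1.23 to -0.01, with edgeR adjusted p-values of 0.723 to 0.994. All 10 named members had values below 0, but the ranking by mean share can itself favour such members. Their common sign was therefore not read as a change.

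**Figure D3:**
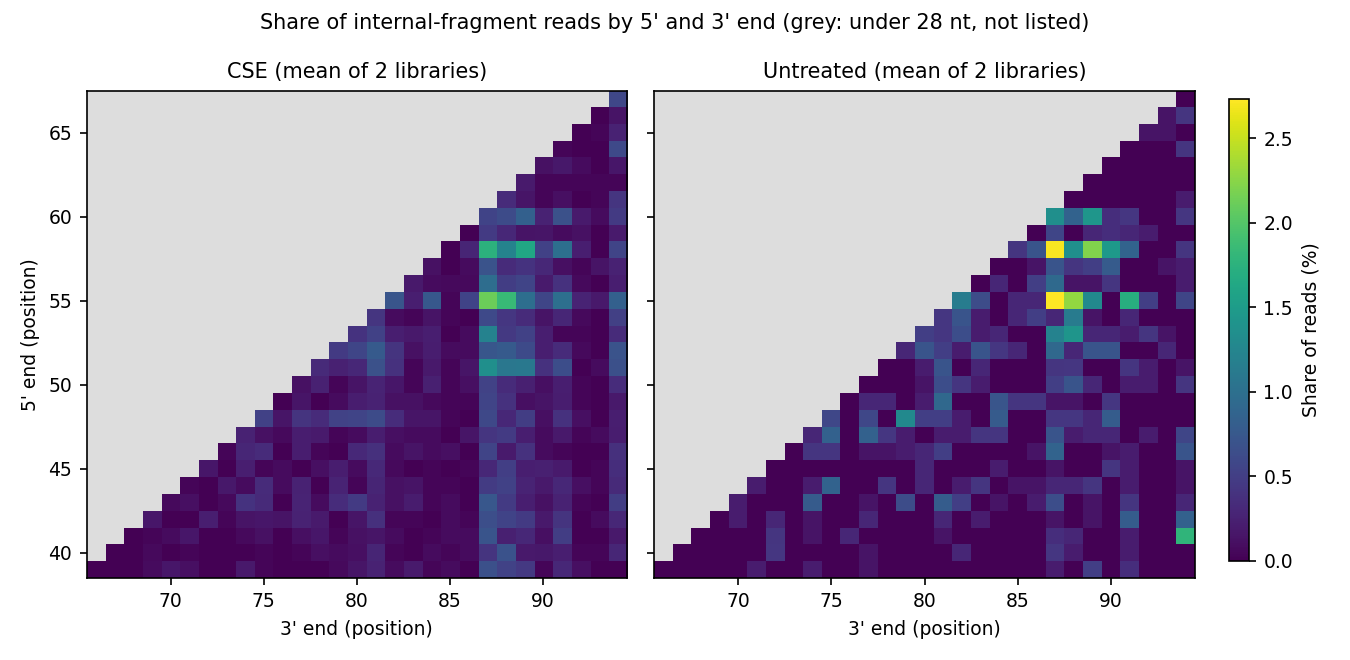
Mean share of set reads (colour, %) by 3′ end (x, position) and 5′ end (y, position) for the 2 CSE libraries (left) and the 2 untreated libraries (right); grey pairs are under 28 nt and not listed. In both maps the highest pairs lie where starts 55 and 58 meet ends 87 to 89, and untreated cells show a separate high pair at 41-94 (1.78%, against 0.184% with CSE).

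At least 10 reads over the 4 libraries were held by 117 members, which carried 67.48% of set reads, and 263 members fell below that number. Of the 117, 0 were called in edgeR and 5 had an unadjusted p under 0.05, while DESeq2 called 0 and Fisher's exact test on pooled reads called 1, 41-94. Over the segment 1 of 317 tested fragments was called, a background of 0.315%, and 10.1% had an unadjusted p under 0.05. The groups did not overlap for 30 higher and 19 lower members, against 24.9% and 18.0% of all tested fragments. Many of the higher members, such as 67-94 and 42-88, had 0 reads in both untreated libraries. They reached 10 reads through the deeper CSE libraries alone, and any reads in both of those then give no overlap. A count of 0 allows shares of up to 1.27% in untreated 1 and 0.870% in untreated 2, so these members are not shown to be higher. The median log2 fold change was -0.01 over the tested members and 0.10 over all tested fragments.

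A few members outside the abundance rule were singled out after their values were seen. Fragment 41-94, 54 nt long, had 1 and 4 reads in the 2 CSE libraries and 5 and 5 in untreated 1 and 2. Its shares were 0.0827% and 0.285% in treated and 2.12% and 1.45% in untreated cells, with a log2 fold change of -3.10 ± 1.03 that did not pass in edgeR (adjusted p = 0.190). Fragment 51-89 had 17 and 11 reads in the CSE libraries and 0 in both untreated ones, which allows shares of up to 1.27% and 0.870%. Its CSE shares of 1.41% and 0.785% are close to those limits, and it did not pass (edgeR adjusted p = 0.190). Fragment 51-87 had 19, 16, 2 and 0 reads, with a log2 fold change of 1.90 ± 0.96 (edgeR adjusted p = 0.479). Without untreated 2, that value was 0.66.

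With starts limited to 39 to 67, set reads were longer on average in treated than in untreated cells, but the size of this difference depended on that limit. Reads of up to 35 nt took 46.2% of the set in CSE 3 (Wilson interval 43.4 to 49.1) and 53.5% in CSE 4 (50.9 to 56.1). In untreated 1 and 2 they took 58.5% (52.1 to 64.6) and 59.1% (53.9 to 64.2). The groups did not overlap (49.9% ± 5.13 against 58.8% ± 0.464, SD, n = 2 each, exact permutation p = 0.33), and the difference of -8.94 percentage points became -5.31 without CSE 3, -12.6 without CSE 4 and -5.36 with starts 36 to 67. Mean length was 37.3 and 36.6 nt in the CSE and 36.01 and 35.7 nt in the untreated libraries, a difference of 1.12 nt. That difference was 0.0556 nt with starts 36 to 67 and 0.743 nt without CSE 3. Reads over 45 nt took 14.1%, 13.9%, 13.1% and 8.12%, and this difference of 3.40 percentage points was 0.891 without untreated 2 and 5.91 without untreated 1. It was 1.85 points with starts 42 to 67 and 5.29 without reads of 53 to 54 nt, and with starts 36 to 67 it turned to -2.34.

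**Figure D4:**
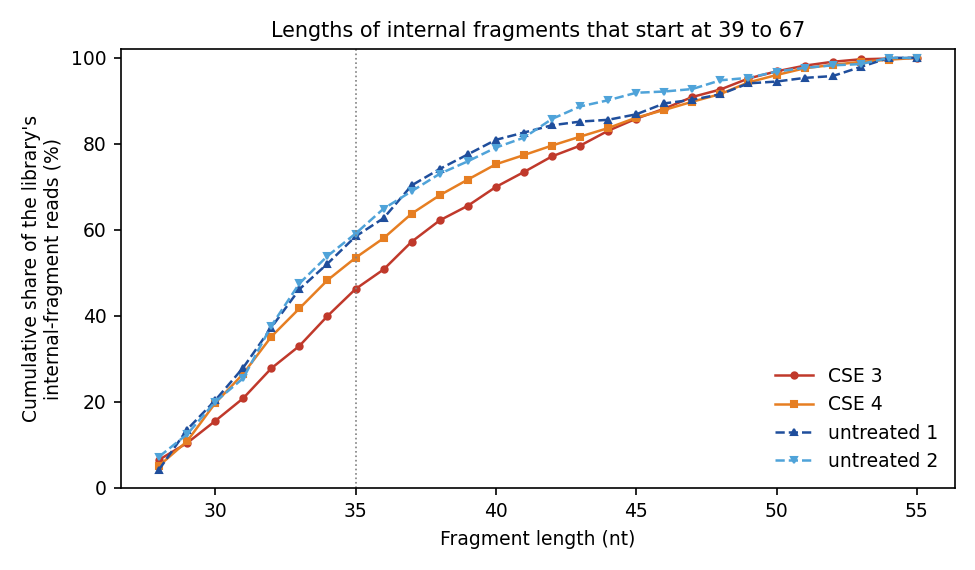
Cumulative share of each library's set reads (y, %) up to each length (x, nt); lines are the 4 libraries and the dotted line marks 35 nt. There both untreated curves (58.5% and 59.1%) lie above both CSE curves (46.2% and 53.5%).

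The mean start was 50.0 and 50.7 in the 2 CSE libraries and 50.9 and 51 in untreated 1 and 2, and the mean end was 86.3 and 86.3 against 85.9 and 85.7. Within blocks of starts the CSE libraries were longer as well. Mean lengths were 43.03 and 43.4 nt against 42.7 and 42.6 nt for starts 39 to 45, 37.0 and 36.4 nt against 36.1 and 36.2 nt for starts 46 to 52, and 33.4 and 33.0 nt against 32.7 and 32.4 nt for starts 53 to 60. None of the 3 blocks overlapped between the groups, although the gaps between the nearest libraries were well under 1 nt (exact permutation p = 0.33 for each).

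By mean share over the 4 libraries 32 and 33 nt ranked first among single lengths, although other lengths were more frequent than 33 nt in both CSE libraries. Length 32 nt held 6.95% and 8.63% with CSE and 9.32% and 12.2% without (edgeR adjusted p = 0.598). Length 33 nt held 5.21% and 6.56% in the 2 CSE libraries and 8.90% and 9.86% in untreated 1 and 2, with a log2 fold change of -0.67 ± 0.33 (edgeR adjusted p = 0.303). Length 54 nt held 2, 7, 5 and 5 reads, with a log2 fold change of -2.29 ± 0.83 (edgeR adjusted p = 0.137), and the 10 untreated reads are all of fragment 41-94, which has 5 in each library. Of the set's 27 tested lengths 0 were called in edgeR, 4 had an unadjusted p under 0.05, DESeq2 called 0, and Fisher's exact test on pooled reads called 2, at 33 and 54 nt. Over the segment 1 of 159 tested lengths was called, a background of 0.629%, and 14.5% had an unadjusted p under 0.05. The groups did not overlap at 11 higher and 3 lower lengths of the set, against 28.3% and 16.4% of all tested lengths. The median log2 fold change was 0.13 over the set's lengths and 0.15 over all tested lengths.

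Reads that start at 22 or at 23 to 38 were not longer on average in treated cells. For reads that start at 22 and stop before the last base, mean length was 53.5 and 49.5 nt in the 2 CSE libraries and 54.2 and 53.4 nt in untreated 1 and 2. For starts 23 to 38 it was 48.9 and 47.4 nt against 50.2 and 49.1 nt. The class at 22 overlapped between the groups, and the class at 23 to 38 was shorter in both CSE libraries. The set's mean length minus that of the class at 22 was -16.1 and -12.9 nt in the CSE and -18.2 and -17.7 nt in the untreated libraries. Against starts 23 to 38 it was -11.6 and -10.8 nt and -14.2 and -13.4 nt. The groups were separate in each of these differences (exact permutation p = 0.33). The same held against reads that reach the last base, with differences of -5.76 and -5.51 nt in the CSE and -8.34 and -6.73 nt in the untreated libraries. No listed read is over 70 nt, which truncates the other classes but not the set.

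The share of reads that stop before the last base differed along starts 39 to 67. The 28 nt limit of the listing allows fewer early ends at later starts, 29 at start 39, 8 at start 60 and 1 at start 67. How far this limit shaped the shares was not tested. Of reads that start at 39 to 42, 89.9% and 89.2% stopped early in the 2 CSE libraries and 95.8% and 90.5% in untreated 1 and 2. Of reads that start at 43 to 45, 71.1% and 74.8% stopped early against 70.7% and 75.6%, and the groups overlapped. Of reads that start at 46, 51.2%, 50%, 29.03% and 53.3% did, on 86, 104, 31 and 30 reads. Of reads that start at 47 to 52, 62.0% and 66.7% stopped early in the CSE and 70% and 73.5% in the untreated libraries. At starts 53 to 60 the shares were 52.8% and 56.5% against 71.9% and 62.5%. At starts 61 to 67 they were 19.2%, 18.2%, 16.7% and 5.56%, where few early ends are long enough to be listed. These blocks differ from those used above for shares of starts and were chosen with earlier results known.

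**Figure D5:**
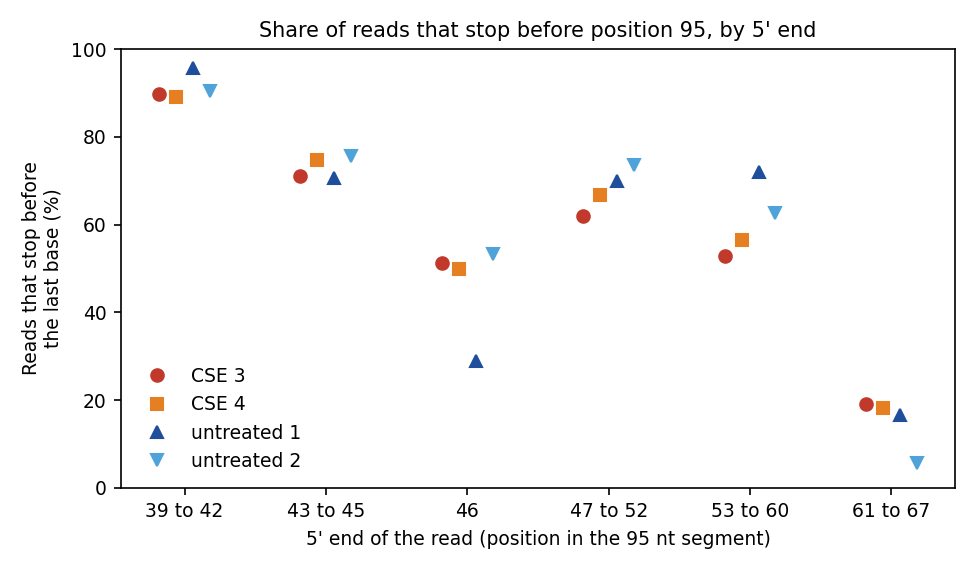
Share of reads that stop before position 95 (y, %) by block of 5′ ends (x, position in the 95 nt segment); each point is 1 library. At 53 to 60 both CSE points (52.8% and 56.5%) lie below both untreated points (71.9% and 62.5%), and at 46 untreated 1 stands low at 29.03%.

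Over all starts of 39 to 67, 57.1% and 59.1% of reads stopped early in the 2 CSE libraries and 64.7% and 62.3% in untreated 1 and 2. The means of 58.1% ± 1.47 and 63.5% ± 1.69 (SD, n = 2 each) did not overlap (exact permutation p = 0.33). With each distinct fragment counted once the difference was 7.56 instead of -5.37 percentage points. That setting allows each start a single fragment that reaches the last base but, at most starts, many that stop early. Its value therefore depends on read number, which differed between the groups. Reads that reach position 95 may continue beyond it, so the share that stops early is the share with an observed end inside the segment.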

How the data were processed

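Small RNA of 15 to 100 nt was cut from gels after treatment with phosphatase and polynucleotide kinase, ligated to a 3′ adaptor with 4 random bases, and sequenced as read pairs of 75 bp, per the labels' protocols. The authors deposited a table per library of read counts for each distinct aligned fragment, with no normalization. The table names give BLASTN as the aligner and positions 16116 to 16210 of chromosome MT as the target; the aligner's version and settings, trimming and any removal of duplicate copies were not given in the sources. The tables list reads of 28 to 70 nt.

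Tables name the group but no labelled replicate, and the library names CSE 3, CSE 4, untreated 1 and untreated 2 follow the tables' own numbers. Alignments ran over 2 joined copies of the segment: 1 to 5 reads per library in the second copy were moved to the first, and 2 to 9 across the join were dropped. Members, lists and tests were chosen with earlier results of these data known. Features with at least 10 reads over the 4 libraries were tested with edgeR 4.0.16 (quasi-likelihood test, Benjamini-Hochberg adjustment over all features of a kind in the segment). The offset was the library's reads in the feature's class: starts up to 21, 22, 23 to 38 or 39 to 67, or an end at 95. SE is the log2 fold change over the root of F. Single values were compared by exact permutation over libraries (SciPy 1.17.1). DESeq2 1.42.0, Fisher's exact test on pooled reads, TMM factors and other selections of reads were alternatives. Fisher's test treats reads as independent and ignores the spread between replicates. The fits were tested on simulated data, with large changes placed only in features with many reads and a spread between replicates set in advance. Changes in features with few reads were not covered. The text names, by mean share of set reads, the top 8 start positions, the top 8 end positions and the top 10 members, and any feature called. Others are marked as chosen after their values were seen.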

Additional observations from a re-analysis of the deposited data

How the results depend on the processing

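No paired analysis was possible because no number is shared by a CSE table and an untreated table. With 2 libraries per group no permutation p can pass 0.05, so unchanged directions of single values say little about stability. Where an arm keeps 1 library, it is assumed to vary like the other group. The 236 and 345 untreated set reads limit the precision. Unless a construction is named, the cause of a change was not tested.

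The calls in edgeR were 1 fragment, 0 5′ ends, 0 3′ ends and 1 length in the segment and 0 of each in the set. With TMM factors they were 3, 1, 0 and 1, with 1 5′ end in the set. TMM factors move the median log2 fold change of fragments from 0.10 to 0.35. With Fisher's exact test they were 7, 4, 8 and 11, and in the set 1 fragment (41-94), 1 5′ end (51) and 2 lengths (33 and 54 nt). With DESeq2 they were 0 fragments and 0 lengths, without a filter 0 fragments and 2 3′ ends, without reads of 53 to 54 nt 0 fragments and 0 lengths, and with all listed reads 4 3′ ends and 3 lengths. Leaving out 1 library gave 0 to 2 fragments, 0 to 2 5′ ends, 0 to 1 3′ ends and 0 to 2 lengths, and 0 to 1 5′ ends in the set.

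With starts 36 to 67 the difference in reads over 45 nt was -2.34 percentage points. The same setting reduced the difference in mean length from 1.12 to 0.0556 nt and that in the set's share of reads from 1.56 to 0.278 points. With each member counted once, the differences were 7.56 for reads that stop early, -6.39 for ends in the G run and -4.15 for ends at 87 to 91. This setting fixes each fragment's weight, and its values depend on read number, which differed between the groups. Leaving out 1 library, first bases C and T differed by -0.208 to 0.639 and -1.32 to 8.72 points, and G run ends by -1.81 to 8.80.

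Of 26 named features, 15 had a fit of opposite sign, 29 fits in all with 0 calls. With all listed reads the log2 fold change was 0.09 at start 52, 0.0485 at end 81 and 0.0815 for 53-87. With TMM factors these were 0.0757, 0.29 and 0.35, and 55-88 and 58-88 had 0.0690 and 0.19. DESeq2 gave 0.00916 at start 52. At end 87, Fisher's test gave -0.0178 and leaving out 53 to 54 nt -0.0137. Leaving out 1 library, ranges crossing 0 were -0.56 to 0.67 and -0.11 to 0.16 for 5′ ends 48 and 52, -0.11 to 0.29 for 43, -0.16 to 0.25, -0.10 to 0.81, -0.10 to 1.06 and -0.30 to 0.39 for 3′ ends 87, 89, 94 and 81. For fragments they were -0.82 to 0.33 (55-87), -1.27 to 0.0757 (58-89), -0.49 to 0.38 (53-87), -0.80 to 0.23 (55-89), -2.12 to 0.0259 (60-89) and -2.45 to 5.43 (58-90).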
